A study of Mus musculus with 10 samples.

Results

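Wnt signalling was described here through 10 mouse genes. Dkk2, Dkk3, Sfrp1 and Apcdd1 were listed as secreted or membrane antagonists, though whether Dkk3 blocks Wnt signalling was not tested. The others were the ligand Wnt10b, the co-receptors Lrp5 and Lrp6, the nuclear factor Lef1, and the pathway targets Axin2 and Nkd1. The genes were chosen by symbol from 60676 genes and loci in a table of raw counts, with their levels in these libraries already known, so their values below are a description and no test of them is independent of that choice. All 10 symbols matched a row.

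In canonical Wnt signalling a secreted Wnt protein binds a Frizzled receptor together with Lrp5 or Lrp6, which stops the destruction complex (Axin, Apc, Gsk3) from degrading beta-catenin. Beta-catenin then enters the nucleus, joins Tcf or Lef factors and activates targets, among which Axin2 and Nkd1 feed back to restrain the pathway. Secreted antagonists act before this step, either on the ligand, as Sfrp proteins do, or on the co-receptor, as Dkk2 can. In colon epithelium the pathway maintains the crypt and is often activated in tumours, and in the melanocyte lineage it is linked to Mitf.

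Bulk RNA was sequenced from MC38, derived from a mouse colon adenocarcinoma, and from B16, derived from a mouse melanoma, both grown in culture. Every library came from cells carrying a knockdown of Sdc1, the gene of the heparan sulphate proteoglycan syndecan-1. All had received 10 ng/ml of interferon gamma (IFNγ) over 24 h. MC38 had 3 groups of 2 libraries: knockdown alone, knockdown plus the c30 mutant, and knockdown plus the ect mutant. B16 had 2 groups of 2: knockdown alone, and knockdown plus wild-type Sdc1. What c30 and ect change in the protein, the vectors used and the number of clones are not given in the sources used here, and cells with an empty vector, without IFNγ or with intact Sdc1 were not analysed here. Whether the paired libraries of a group stem from separate cultures is not stated, so the spread between them may be technical.

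Library totals ranged from 11349447 to 15041133 counts. Levels are given as CPM, counts per 1000000 counts of the library, and 3 counts, taken as the upper limit that a count of 0 allows, came to between 0.199 and 0.264 CPM. Such floors, and the exact Poisson 95% intervals below, cover counting error only. The 8 melanocyte markers summed to between 13477 and 14272 CPM in B16 and to between 0.436 and 8.10 CPM in MC38, where c30 replicate 2 held 31 counts of Tyrp1 and 28 of Dct. Of 10 intestinal epithelial markers, 2 to 3 reached 1 CPM in each MC38 library, so these libraries carried few transcripts that define colon epithelium. Of 7 fibroblast markers, 4 reached 1 CPM there (108 to 171 CPM in sum). In B16 the counts were close to these, with 2 of the intestinal and 3 to 4 of the fibroblast markers, but the fibroblast sum was 14.4 to 17.3 CPM. The 9 leukocyte markers summed to at most 4.87 CPM in any library. In B16 wild type the median gene differed by 0.201 (log2) between the 2 libraries, against 0.124 to 0.126 in the other 4 groups, and values that turn on 1 of these libraries are named as such.

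Sdc1, the targeted gene, stood at 24.5 and 30 CPM in the MC38 knockdown libraries, 97.0 and 99.5 with c30, and 22.4 and 25.2 with ect. In B16 it stood at 40.7 and 43.1 CPM in the knockdown and 71.1 and 56.9 with wild type. Transcript levels of Sdc1 were thus above the knockdown in the c30 and wild-type libraries and overlapped it in the ect libraries. The log2 fold change over the knockdown was 1.86 with c30 (SE 0.088, edgeR adjusted p = 6.18e-31), -0.17 with ect (SE 0.10, adjusted p = 0.325) and 0.64 with wild type in B16 (SE 0.12, adjusted p = 0.269). The B16 difference was called under other settings, for example by DESeq2 (adjusted p = 0.0355), without wild-type replicate 1 (0.48, adjusted p = 0.000859) and without wild-type replicate 2 (0.78, adjusted p = 9.92e-11), over a range of adjusted p from 9.92e-11 to 0.431.

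Wnt10b (ENSMUSG00000022996.16), a ligand that activates beta-catenin signalling, was an MC38 transcript. Its level was 74.6 and 76.5 CPM in the MC38 knockdown libraries, 69.6 and 63.0 with c30, and 65.7 and 69.3 with ect, and it had 0 counts in all 4 B16 libraries. Both knockdown libraries lay above all 4 libraries with a mutant form. The differences were small: the log2 fold change was -0.18 with c30 (SE 0.069, 95% interval -0.32 to -0.05) and -0.15 with ect (SE 0.068, -0.28 to -0.01). Between c30 and ect it was -0.04 (-0.17 to 0.10). The observed level in the lower MC38 knockdown library was 286-fold above the higher 3-count floor of the B16 knockdown libraries.

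Dkk2 (ENSMUSG00000028031.7), a secreted protein that binds Lrp5 and Lrp6 and can block Wnt signalling, was also at 0 in all 4 B16 libraries. In MC38 its level was 86.5 and 82.3 CPM in the knockdown, 92.3 and 91.4 with c30, and 71.0 and 83.0 with ect. Both c30 libraries were above the other 4, and the ect libraries overlapped the knockdown. The log2 fold change was 0.13 with c30 (SE 0.064, 95% interval 0.00 to 0.25), -0.12 with ect (SE 0.064, -0.24 to 0.01) and 0.24 between c30 and ect (SE 0.065, 0.11 to 0.37). Its edgeR adjusted p over all genes for c30 against ect was 0.0733, and without ect replicate 2, the higher ect library, the difference was 0.36 and was called (adjusted p = 0.015, the lowest of a range up to 0.969 over 11 alternatives). The observed level in the lower MC38 knockdown library was 315-fold above the higher 3-count floor of the B16 knockdown.

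The promoters of the 2 genes that were at 0 in one line and abundant in the other, and of the target Axin2, are shown because they allow this contrast to be read beside sequence. Of the 10 genes, 5 had an entry in the promoter table used. Each line holds the 250 bases before the RefSeq gene start in build GRCm38.p6, read 5′ to 3′ on the gene's strand, at chr15:98778151-98778400 (minus strand) for Wnt10b, chr3:132085042-132085291 (plus strand) for Dkk2 and chr11:108920099-108920348 (plus strand) for Axin2. The files were made with another build, GRCm39, so these positions do not apply to it. Capitals mark CTTTG, the core of the motif bound by Tcf and Lef factors. They also mark TATAAA, the box that positions the polymerase at some promoters. Both were searched on both strands.
Wnt10b: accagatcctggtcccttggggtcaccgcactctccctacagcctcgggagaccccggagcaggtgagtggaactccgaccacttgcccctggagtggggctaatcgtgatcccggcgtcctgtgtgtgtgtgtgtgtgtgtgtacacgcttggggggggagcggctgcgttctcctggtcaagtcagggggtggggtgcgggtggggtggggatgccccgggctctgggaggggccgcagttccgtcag
Dkk2: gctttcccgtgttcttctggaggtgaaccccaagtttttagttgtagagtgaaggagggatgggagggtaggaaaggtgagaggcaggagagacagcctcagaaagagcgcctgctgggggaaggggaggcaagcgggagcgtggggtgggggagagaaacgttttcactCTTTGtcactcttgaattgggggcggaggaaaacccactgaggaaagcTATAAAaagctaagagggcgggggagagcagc
Axin2: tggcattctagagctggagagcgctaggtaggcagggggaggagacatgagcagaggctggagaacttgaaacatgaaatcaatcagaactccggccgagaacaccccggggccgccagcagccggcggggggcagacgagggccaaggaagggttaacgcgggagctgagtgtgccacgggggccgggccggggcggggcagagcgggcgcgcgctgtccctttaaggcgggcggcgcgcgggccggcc
The Dkk2 window held CTTTG with its first base 80 bases before the start and TATAAA 32 bases before it. Neither motif was found in the Wnt10b or Axin2 windows. Of 32851 promoter windows of the same length, 48.6% held CTTTG and 12.4% held TATAAA on either strand, so the matches in Dkk2 are common ones. G and C made up 66.8% of the Wnt10b window, 55.6% of the Dkk2 window and 69.2% of the Axin2 window.

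Dkk3 (ENSMUSG00000030772.7), a divergent member of the Dickkopf family, showed the opposite pattern. In B16 it stood at 57.2 and 55.0 CPM in the knockdown and 57.9 and 55.2 with wild type. The 6 MC38 libraries held 1 to 7 counts each and 22 in all, which put them between 0.0878 and 0.528 CPM, with the knockdown libraries at 5 and 7 counts, c30 at 2 and 4, and ect at 1 and 3. All B16 libraries thus lay far above all MC38 libraries, while the counting intervals of the MC38 groups overlapped (0.118 to 0.847 CPM for knockdown replicate 1 and 0.00220 to 0.489 CPM for ect replicate 1). In B16 the log2 fold change with wild type was 0.04 (SE 0.098, 95% interval -0.18 to 0.26). Between the knockdown groups of the lines it was 6.99 higher in B16 (SE 0.39), or 127-fold.

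Apcdd1 (ENSMUSG00000071847.15), a membrane glycoprotein that binds Wnt and Lrp5 and inhibits signalling, was, among the 10 genes, the other antagonist clearly detected in MC38. It stood at 18.3 and 19.5 CPM in the knockdown, 22.6 and 20.4 with c30 and 18.9 and 20.5 with ect. The c30 libraries lay above the knockdown and the ect libraries overlapped both. The log2 fold change was 0.19 with c30 (SE 0.12, 95% interval -0.05 to 0.44) and 0.07 with ect (SE 0.12, -0.17 to 0.32). In B16 there was 1 count in 1 wild-type library and 0 in the other 3. The observed level in the lower MC38 knockdown library was 70.1-fold above the higher floor of the B16 knockdown. Sfrp1 (ENSMUSG00000031548.8), which encodes a secreted protein with a Frizzled-like domain, had 1 count in 1 MC38 library, 4 counts in 1 B16 knockdown library and 0 in the other 8, so its level was at or near the floor and no fold is given.

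**Figure D1:**
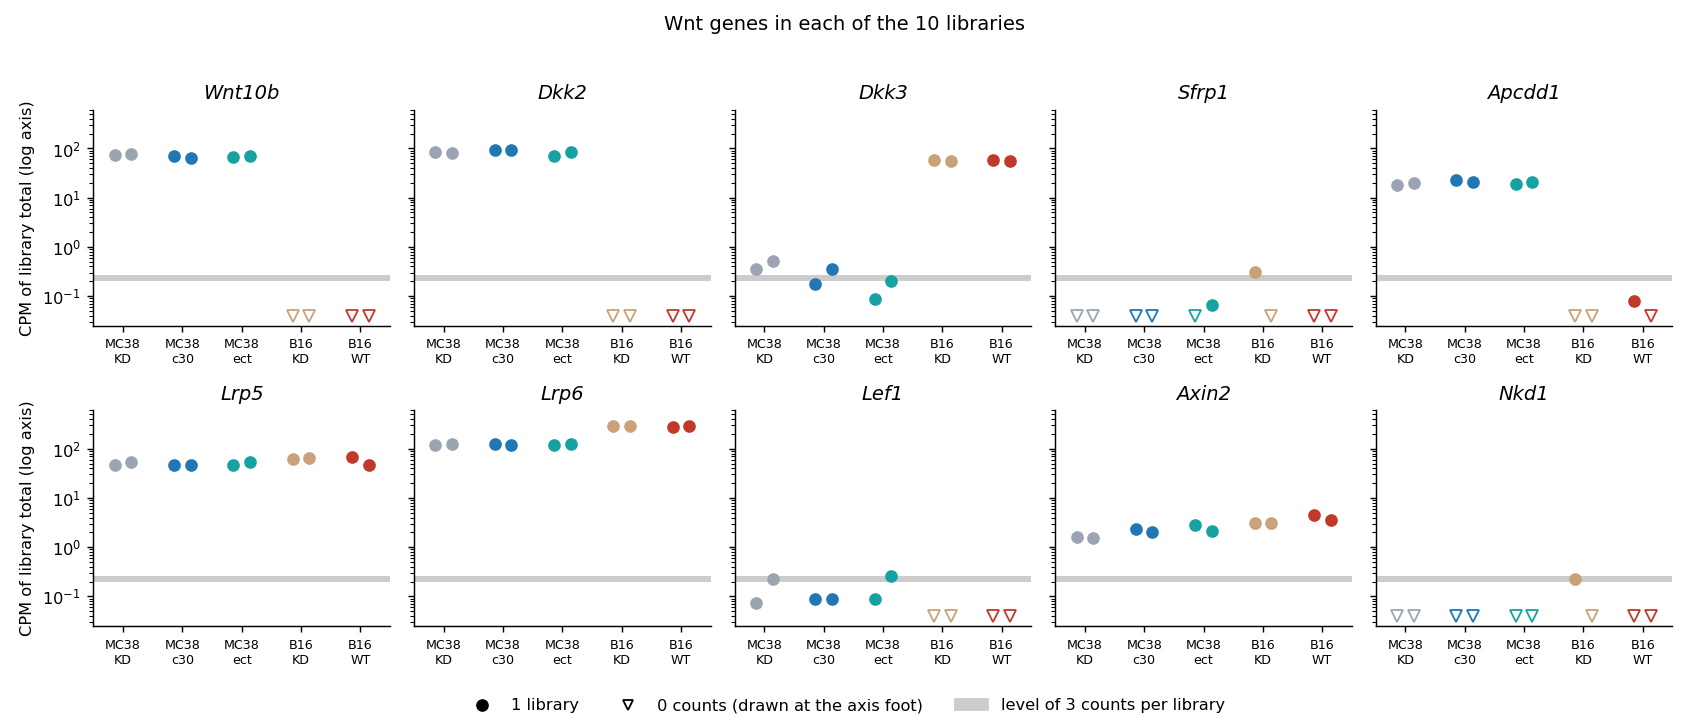
CPM of the library total (log axis) of the 10 Wnt genes, each point 1 library, in MC38 knockdown (KD), c30 and ect and in B16 knockdown (KD) and knockdown with wild-type Sdc1 (WT). Open triangles are libraries with 0 counts and the grey band is the level of 3 counts. Wnt10b, Dkk2 and Apcdd1 are high in MC38 and at 0 or 1 count in B16, Dkk3 shows the opposite, and Sfrp1, Lef1 and Nkd1 lie at or near the band or below it in both lines.

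Both co-receptors were expressed in both lines. Lrp6 (ENSMUSG00000030201.16), the main co-receptor for canonical Wnt ligands in many tissues, had 117 and 127 CPM in the MC38 knockdown, 122 and 120 with c30 and 121 and 125 with ect. In B16 it had 290 CPM in both knockdown libraries, and 280 and 286 with wild type. The lines did not overlap, and within each line the groups lay close together. The log2 fold change was -0.01 with c30 (SE 0.057, 95% interval -0.12 to 0.11), 0.02 with ect (SE 0.057, -0.09 to 0.14) and -0.01 with wild type in B16 (SE 0.079, -0.18 to 0.17), the narrowest intervals among the members tested. Between the knockdown groups Lrp6 was 2.45-fold higher in B16 (log2 1.29, SE 0.065).

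Lrp5 (ENSMUSG00000024913.17), the closely related second co-receptor, had 46.2 and 54.4 CPM in the MC38 knockdown, 46.5 and 46.7 with c30 and 46.4 and 52.9 with ect. In B16 it had 60.9 and 66.0 CPM in the knockdown and 67.3 and 47.2 with wild type. The groups overlapped within each line, and B16 wild-type replicate 2 lay within the range of MC38. The log2 fold change was -0.10 with c30 (SE 0.087), 0.00 with ect (SE 0.085) and -0.12 with wild type in B16 (SE 0.14, 95% interval -0.44 to 0.20). Without wild-type replicate 1 the B16 difference was -0.39 and was called (edgeR adjusted p = 0.00554, in a range of 0.00554 to 1 over 11 alternatives), so it turned on which wild-type library was used. Lrp5 was 1.30-fold higher in the B16 knockdown than in the MC38 knockdown (log2 0.38, SE 0.12). That difference was not called without MC38 knockdown replicate 1 (0.28, adjusted p = 0.127) or without B16 knockdown replicate 2 (0.34, adjusted p = 0.0685), in a range from 0.000113 to 0.127.

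Lef1 (ENSMUSG00000027985.15), a DNA-binding partner of beta-catenin, had 1 to 4 counts in each MC38 library, 11 in all, and 0 in each B16 library. Nkd1 (ENSMUSG00000031661.13), a target that binds Dishevelled and restrains signalling, had 3 counts in 1 B16 knockdown library and 0 in the other 9. Both were at or near the 3-count floor throughout, and no fold is given for either.

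Axin2 (ENSMUSG00000000142.16), a widely used target of beta-catenin and itself a scaffold of the destruction complex, was present at a low level in every library. The MC38 knockdown libraries held 22 and 20 counts (1.60 and 1.51 CPM), the c30 libraries 26 and 23 (2.29 and 2.002 CPM) and the ect libraries 32 and 32 (2.81 and 2.13 CPM). In B16 it had 40 and 36 counts in the knockdown (3.05 and 3.13 CPM) and 56 and 45 with wild type (4.43 and 3.59 CPM). In both lines the libraries of the knockdown alone were the lowest, and no library of another group overlapped them. In the ect libraries this went with Sdc1 transcript levels that overlapped the knockdown (22.4 and 25.2 CPM). At this depth the intervals were wide: the log2 fold change was 0.47 with c30 (SE 0.40, 95% interval -0.34 to 1.27), 0.66 with ect (SE 0.39, -0.11 to 1.44) and 0.40 with wild type (SE 0.27, -0.20 to 1.00). The c30 and ect values share the same 2 knockdown libraries. Between the knockdown groups Axin2 was 2.04-fold higher in B16 (log2 1.03, SE 0.34).

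Scaled to exon length (CPM per kilobase), the order in MC38 was Dkk2 with a mean of 22.8 (range 19.2 to 24.9 over 6 libraries), Wnt10b 20.5 (18.5 to 22.5), Lrp6 8.92 (8.58 to 9.28), Lrp5 5.02 (4.74 to 5.59), Apcdd1 1.55 (1.42 to 1.76), Axin2 0.373 (0.274 to 0.511) and Dkk3 0.0845. Dkk2 and Wnt10b overlapped, and the other neighbours down to Dkk3 did not. In B16 the order of levels per kilobase was Lrp6 with 21.0 (20.5 to 21.2 over 4 libraries), Dkk3 16.8 (16.4 to 17.2), Lrp5 6.20 (4.85 to 6.91) and Axin2 0.645 (0.555 to 0.805), with no overlap between neighbours. Of the 4 members listed as antagonists the most abundant was thus Dkk2 in MC38 and Dkk3 in B16. Whether Dkk3 acts as an antagonist there was not tested.

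Within the lines no member was called in any of the 4 comparisons at an adjusted p under 0.05 over all genes. Of 6 members tested in each MC38 comparison, 0 were called with c30, where 7.75% of all genes tested were called, 0 with ect, where 8.16% were, and 0 between c30 and ect, where 0.299% were. These shares depended on the setting. The 1165 genes called with c30 became 771 without knockdown replicate 2, 459 without c30 replicate 1, 483 without c30 replicate 2, 513 with DESeq2 and 254 with all 10 libraries in 1 fit. The 1227 called with ect became 780 without ect replicate 1, 763 without ect replicate 2, 600 with DESeq2 and 249 with all 10 libraries. The 45 between c30 and ect became 17 and 16 without c30 replicate 1 or 2, 19 with DESeq2 and 8 with all 10 libraries. In each MC38 comparison, 1 of the 6 members had an unadjusted p under 0.05, Wnt10b in the first 2 and Dkk2 in the third. Of all 15031 genes tested, 3011, 3066 and 1310 were under that value in the same order, so nothing is read from these counts. In B16, 0 of 4 members were called, 0 of these at an unadjusted p under 0.05, and 0% of 14336 genes were called (791 at an unadjusted p under 0.05, 11 genes called by DESeq2 and 0 by limma-voom). DESeq2 and limma-voom also called 0 members in these 4 comparisons. Between the knockdown groups all 7 members tested were called, 4 higher and 3 lower in B16, where 68.2% of all genes were, and since the members were chosen from these levels nothing is read from that count. The B16 wild-type effect minus the mean of the c30 and ect effects could be compared for 3 members, Lrp5, Lrp6 and Axin2, which were tested in the fits of both lines, while Wnt10b, Dkk2, Apcdd1 and Dkk3 were near 0 in one line and have no effect to compare there. It was called for 0 of these 3 by edgeR, DESeq2 or limma-voom (0 at an unadjusted p under 0.05), where 0.486% of all genes tested and 0.647% of the 12683 genes tested in both lines were called. The 82 genes called over all became 1285 without B16 wild-type replicate 1, 419 without B16 wild-type replicate 2 and 12 to 38 without any other single library. For Axin2 it was -0.17 (95% interval -1.04 to 0.71) and for Lrp6 -0.02 (-0.19 to 0.16). Line and form of Sdc1 cannot be told apart in that difference.

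**Figure D2:**
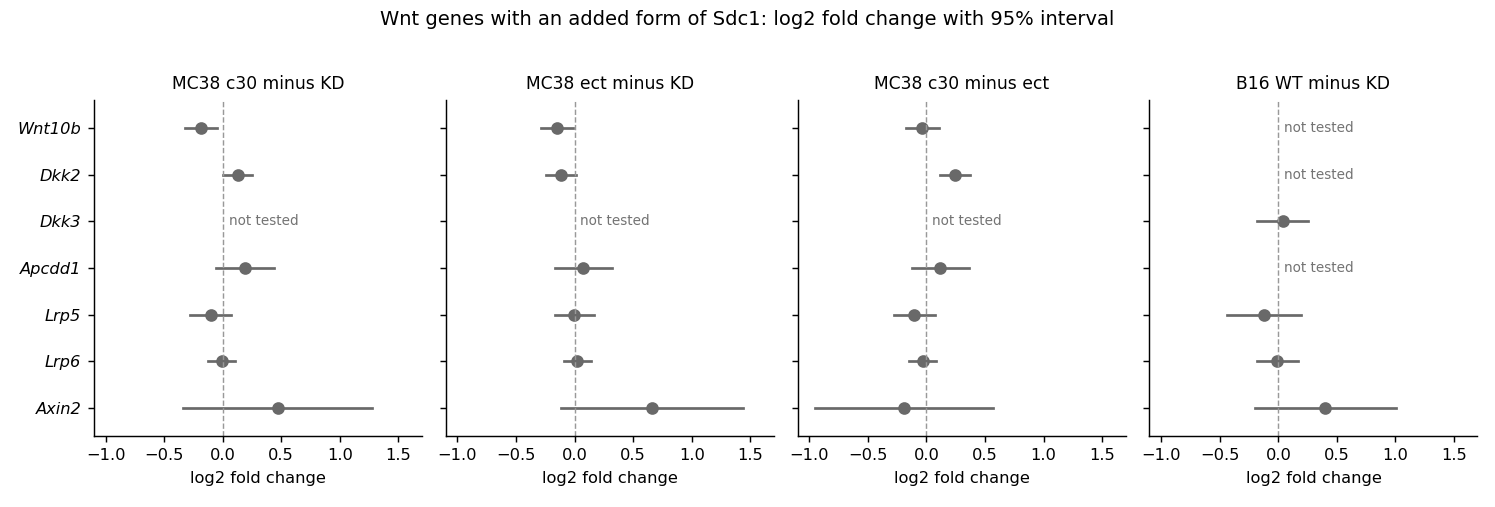
Log2 fold change with its 95% interval (horizontal bars, edgeR fit) for 7 of the Wnt genes in each comparison within a line, where KD is the knockdown alone and WT is wild-type Sdc1. Lrp6 has the narrowest intervals, centred near 0, Axin2 the widest, and Dkk2 lies above 0 for c30 against ect.

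The rest of the pathway was read from 6 lists with 108 other genes: ligands, secretion factors with agonists and antagonists, receptors, cytoplasmic components, nuclear factors and targets. In MC38, 61 of the 108 had at least 1 CPM in every library and in B16 54 did, 50 of them in both, while 22 were under 3 counts in every library. Of 18 ligands, 4 reached that level in MC38 and 1 in B16. The most abundant tested ligand per kilobase was Wnt5a in MC38 (23.6 to 30.7 CPM, mean 3.55 CPM per kilobase), a ligand known for beta-catenin-independent signalling, and Wnt2b in B16 (1.22 to 1.92 CPM, mean 0.399 per kilobase). Wnt10b, at 20.5 CPM per kilobase in MC38, was above both. Among receptors, Ptk7 (mean 14.7 CPM per kilobase, 13.9 to 15.3 over libraries) and Fzd2 (13.9, 12.3 to 15.4) had the highest means in MC38 and overlapped, so their order is not separated. Fzd7 had the highest in B16 (31.1). The most abundant nuclear factor was Pygo2 in both lines (28.9 and 16.2).

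With c30, 5 of 66 tested pathway genes were called, 1 higher and 4 lower (7.58%, against 7.75% of all genes). Their median log2 fold change was 0.001, against 0.0013 over all genes. Wls, which carries Wnt proteins to the cell surface, fell from 282 and 281 CPM to 242 and 238 (log2 fold change -0.23, SE 0.048, edgeR adjusted p = 0.000545). Tcf7, a DNA-binding partner of beta-catenin, fell from 32.2 and 30.1 CPM to 22.4 and 23.3 (-0.44, SE 0.11, adjusted p = 0.0042). The groups of both genes did not overlap. Bcl9l, a beta-catenin co-activator (-0.27, SE 0.065), and the angiogenic factor Vegfa (-0.29, SE 0.059) were lower, and Fosl1, an AP-1 subunit, was higher (0.43, SE 0.14, adjusted p = 0.0335). The number called was 3 without c30 replicate 1, 2 without c30 replicate 2, 3 with DESeq2 and 1 with all 10 libraries in 1 fit. Calls were lost without single libraries for Bcl9l (knockdown replicate 2, -0.15, or c30 replicate 2, -0.20), Tcf7 (knockdown replicate 1, -0.39, or c30 replicate 1, -0.40), Vegfa (c30 replicate 2, -0.23) and Fosl1 (knockdown replicate 1, 0.29, c30 replicate 1, 0.38, or c30 replicate 2, 0.49).

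With ect, 7 of 66 were called, 2 higher and 5 lower (10.6%, against 8.16% of all genes), with a median log2 fold change of -0.02 against 0.0016 over all genes. Wls stood at 243 and 247 CPM (-0.19, SE 0.047, adjusted p = 0.00473) and Tcf7 at 21.3 and 20.7 CPM (-0.56, SE 0.11, adjusted p = 0.000141), both lower than the same knockdown libraries as in the c30 comparison. Tle2, a Groucho family co-repressor, fell from 14.2 and 13.1 CPM to 9.13 and 7.65 (-0.70, SE 0.16, adjusted p = 0.00185). Ryk, a Wnt receptor with an inactive kinase domain, fell by 0.33 on the log2 scale (SE 0.078) and Vegfa by 0.41 (SE 0.059). Among the targets Id2, an inhibitor of helix-loop-helix factors, rose from 12.5 and 11.7 CPM to 16.3 and 19.1 (0.57, SE 0.14). Myc rose from 84.6 and 93.2 to 101 and 106 (0.23, SE 0.061). With c30 the log2 fold change was 0.41 for Id2, 0.15 for Myc, -0.31 for Tle2 and -0.14 for Ryk, none called. With ect it was 0.35 for Fosl1 and -0.06 for Bcl9l, neither called. Genes called with a single form thus kept their sign with the other form. Without ect replicate 2 the number called was 3, with Ryk (-0.29), Tle2 (-0.56), Id2 (0.45) and Myc (0.20) no longer called, and with all 10 libraries in 1 fit it was also 3. Calls were also lost for Wls without ect replicate 1 (-0.18), Ryk without knockdown replicate 1 (-0.26), Id2 without knockdown replicate 2 (0.52) and Myc without knockdown replicate 1 (0.16). Some markers of other cell types differed between these groups. The fibroblast list summed to 162 to 171 CPM in the knockdown, 121 to 131 with c30 and 108 to 117 with ect. Pdgfra, Pdgfrb and Col1a1 were lower with c30 and ect than in both knockdown libraries. Dcn overlapped, with 2.47 and 1.73 CPM in the knockdown, 1.76 and 1.74 with c30 and 2.46 and 1.40 with ect. These genes were at 1 CPM or more in each library, and Lum, Thy1 and Fap were under 0.70 CPM, down to 0, in all. The intestinal epithelial list summed to 18.5 to 18.8 CPM in the knockdown, 11.8 to 16.3 with c30 and 11.7 to 12.6 with ect, with Epcam at no more than 0.527 CPM. Its difference lay mainly in Cdh1, which had 13.7 and 13.9 CPM in the knockdown, 9.25 and 7.31 with c30 and 5.53 and 6.85 with ect, while the other 9 markers summed to 4.60 to 5.08, 4.53 to 7.05 and 5.78 to 6.15 CPM. The part of these cell type markers in the differences above, those of the 10 Wnt genes included, was not tested. In bulk RNA, fewer cells that express a gene and less of its RNA per cell cannot be told apart.

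**Figure D3:**
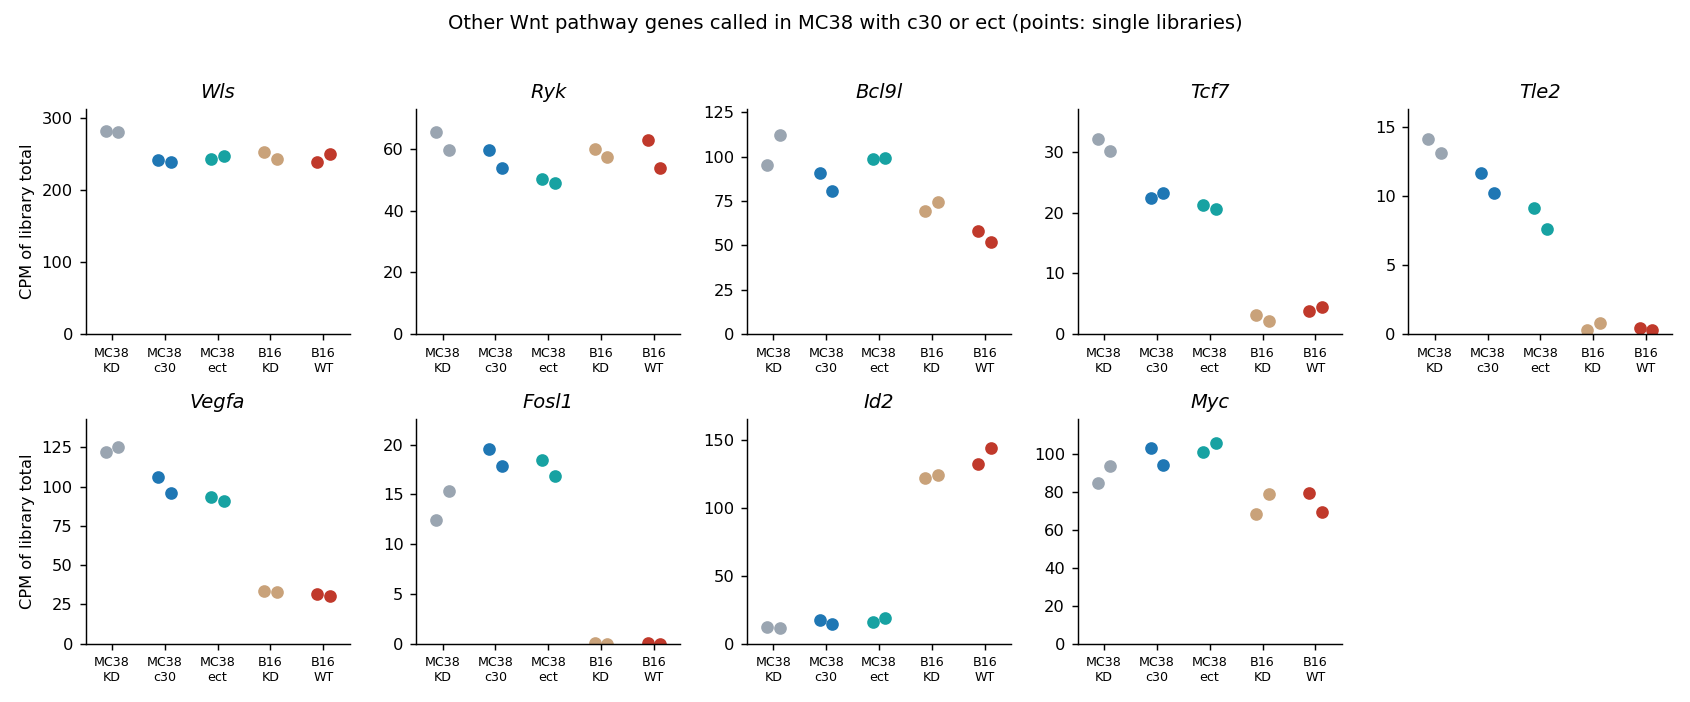
CPM of the library total (linear axes from 0) of the 9 other Wnt pathway genes called with c30 or ect, each point 1 library, where KD is the knockdown alone and WT is wild-type Sdc1. Wls, Tcf7, Tle2 and Vegfa are lower with both mutant forms than in both MC38 knockdown libraries, and Fosl1, Id2 and Myc are higher. Tle2, Tcf7, Vegfa and Fosl1 are far lower in B16.

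Between c30 and ect, 0 of 66 pathway genes were called by edgeR, DESeq2 or limma-voom (6 at an unadjusted p under 0.05, where 1310 of 15031 genes were). In B16, 0 of 58 were called by the same tools (7 at an unadjusted p under 0.05, where 791 of 14336 genes were). Calls appeared when either wild-type library was left out, and over all genes as well, so the count depended on the library that was left out. Such a fit keeps 1 library in the wild-type group. Tcf7 in B16 stood at 3.13 and 2.09 CPM in the knockdown and 3.80 and 4.47 with wild type (log2 fold change 0.68, SE 0.30, edgeR adjusted p = 0.891). Its B16 effect minus the mean MC38 effect was 1.17 (SE 0.27, edgeR adjusted p = 0.0367). This was the 1 called difference among 71 pathway genes (1.41%, against 0.486% of all genes). Among the 53 of them tested in both lines it was 1.89%, against 0.647% of all genes tested in both. A single gene was called, so nothing is read from these shares about the pathway. The Tcf7 difference was not called in 10 of 16 alternatives. The alternatives without a call included leaving out any 1 MC38 library (1.12 to 1.22), B16 knockdown replicate 2 (0.91) or B16 wild-type replicate 2 (1.05).

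Between the knockdown groups of the lines, 54 of 71 pathway genes were called, 25 higher and 29 lower in B16 (76.1%, against 68.2% of all genes). Of the 53 that passed the filter on low counts in both lines, 38 were called, 20 higher and 18 lower (71.7%, against 65% of all genes that passed in both). Of 7 ligands tested between the lines, 6 passed in MC38 and not in B16, so for these the filter favoured a lower value in B16, and the 4 called were among them. The other ligand, Wnt2b, was not called. Wnt5a had 29.4 and 30.7 CPM in the MC38 knockdown and 0.153 and 0 in the B16 knockdown, and Wnt10a had 3.05 and 1.88 CPM against 0 in both. Of 15 receptors tested, 7 were higher and 5 lower in B16 (80%, against 68.2% of all genes). Of the 10 that passed the filter in both lines, 5 were higher and 2 lower (70%, against 65%). For receptors that passed in a single line, Fzd6 and Ptk7 among them, the filter favoured a higher value in that line. Fzd7, a receptor for canonical ligands, had 29.2 and 33.8 CPM in the MC38 knockdown and 146 and 138 in the B16 knockdown (log2 2.22, SE 0.094). Fzd6 was at 0 in all 6 MC38 libraries and between 15.8 and 18.8 CPM in B16. Its observed level in the lower B16 knockdown library was 70.1-fold above the higher 3-count floor of the MC38 knockdown. Ptk7, a co-receptor of planar polarity signalling, went the other way, from 74.7 and 81.8 CPM to 0 and 0.174.

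Inside the cell, 12 of 19 cytoplasmic components were called, 6 in each direction (63.2%, against 68.2% of all genes), mostly at smaller differences. Among those named, the Dishevelled gene Dvl2 was lower in B16 (log2 -1.12, SE 0.087), the tankyrase gene Tnks, whose product marks Axin for degradation, was higher (0.87, SE 0.068), and Apc2, an Apc paralogue, was lower (-4.18, SE 0.26). Porcn, the acyltransferase that lipidates Wnt proteins, was lower in B16 (-3.21, SE 0.74, from 2.54 and 2.26 CPM to 0.31 and 0.17). Frzb, a secreted Frizzled-related antagonist, was higher (7.30, SE 1.49, from 0 and 0.0754 CPM to 6.03 and 8.44). Porcn passed the filter on low counts in MC38 only and Frzb in B16 only, so the filter favoured these directions. Of the 2 genes of their list that passed in both lines, 0 were called, against 65% of all genes that passed in both. Of 11 nuclear factors, 5 were higher and 5 lower (90.9%, against 68.2% of all genes). Of the 10 that passed the filter in both lines, 5 were higher and 4 lower (90%, against 65% of all genes that passed in both). Tcf7 was lower in B16 (-3.52, SE 0.21), as was Tle2 (-4.62, SE 0.43), while Tcf7l1, often a repressor of targets, was higher (2.69, SE 0.26). Tle2 held 4 to 9 counts in each B16 library, with 0.31 and 0.78 CPM in the knockdown. It passed the filter in MC38 and not in B16, so the filter favoured a lower value in B16.

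Of 14 targets tested between the lines, 5 were higher and 8 lower in B16 (92.9%, against 68.2% of all genes). Of the 11 that passed the filter in both lines, 4 were higher and 6 lower (90.9%, against 65% of all genes that passed in both). All genes called were also split, 5712 higher and 5792 lower, so nothing is read from the mixed direction. Axin2 and Mitf were higher in B16, the latter, the master regulator of melanocytes, by 5.39 (log2, SE 0.13). Sox9, a transcription factor of the crypt, and Ccnd1, the gene of cyclin D1, were lower, by -6.73 (log2, SE 0.28) and -2.50 (SE 0.063). For all genes named in this comparison except Wnt2b the edgeR adjusted p was under 0.05 and the 2 libraries of each line did not overlap.

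**Figure D4:**
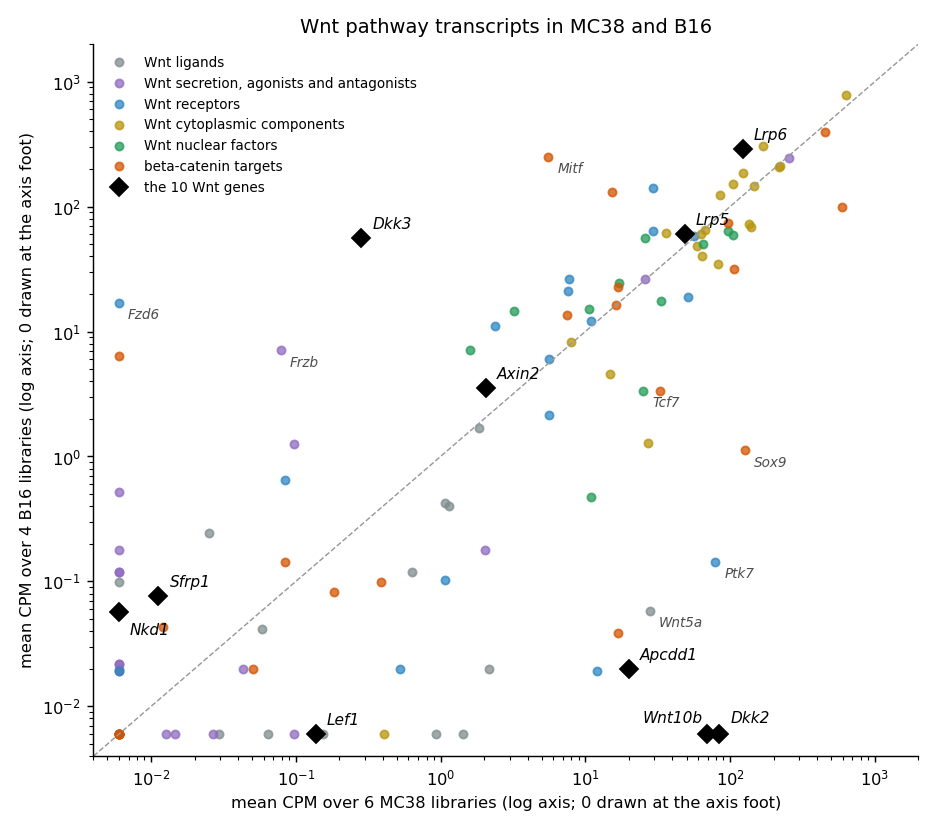
Mean CPM of 10 Wnt genes (black diamonds) and 108 other pathway genes (circles, coloured by list) over 6 MC38 libraries (x axis) and 4 B16 libraries (y axis), both on log axes with 0 drawn at the axis foot. The dashed line marks equal levels. Wnt10b, Dkk2 and Apcdd1 lie far below it, Dkk3 far above it, and Lrp5, Lrp6 and Axin2 near it.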

How the data were processed

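The authors deposited raw counts per gene for 10 libraries of total RNA (messenger RNA kit, paired-end reads on Illumina HiSeq, per the labels). The submitters' processing notes name build GRCm39 and, with no order or role, DESeq2, featureCounts, HTSeq, HISAT2 2.0.5 and Trimmomatic. Annotation, strand setting and the handling of reads with several matches are not given in the sources used here, so reads of overlapping antisense genes cannot be told apart. Symbols were matched by Ensembl identifier for 51884 of 60676 rows, and exon lengths came from a reference annotation of build GRCm38.

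The quasi-likelihood test of edgeR 4.0.16 (R 4.3.3) was fitted to the counts after filterByExpr and TMM scaling, with robust dispersions, 2-sided, and genes were called at a Benjamini-Hochberg adjusted p under 0.05 over all genes. One fit of 6 libraries served the MC38 comparisons, the 4 B16 libraries had their own, and comparisons across lines used all 10. CPM per library used the library total. Totals of 11349447 to 15041133 counts set the 3-count floor, and 95% limits are exact Poisson intervals for levels and t-based intervals from the fit for fold changes. Alternatives were RLE size factors, no filter, a stricter filter (5 CPM in 2 libraries), limma-voom (limma 3.58.1), DESeq2 1.42.0, replicate number as a block, other sets of libraries in the fit, and leaving out each library. The fit was tested on simulated data.

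The members and lists were chosen with earlier results of these data known. Pathway genes are named by a rule: up to 3 called genes per list and comparison with the smallest adjusted p and a mean of at least 1 CPM, the most abundant tested ligand, receptor and nuclear factor, and Sdc1. Figures used matplotlib 3.10.9.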

Additional observations from a re-analysis of the deposited data

Results flagged for a closer look

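Tcf7, a DNA-binding partner of beta-catenin, had a log2 fold change over the knockdown of -0.44 with c30 and -0.56 with ect in MC38, and of 0.68 with wild type in B16, where it was not called (edgeR adjusted p = 0.891). The Sdc1 transcript was above the knockdown in the c30 and wild-type libraries and overlapped it in the ect libraries. The test of the difference itself, the B16 effect minus the mean of both MC38 effects, gave 1.17 (SE 0.27, edgeR adjusted p = 0.0367). That difference between the lines is why the gene is listed. It was called in 6 of 16 alternatives and not in 10, over a range of adjusted p from 0.00272 to 0.313. The B16 libraries held 24 to 56 Tcf7 counts each and the MC38 libraries 243 to 444. Line and form of Sdc1 cannot be told apart in this difference.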

How the results depend on the processing

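No called value changed its sign in the alternatives run, but 17 values of members near 0 did, none of them called. When single libraries were left out, Lrp5 ranged from -0.22 to 0.015 (log2) with c30, -0.12 to 0.12 with ect, -0.39 to 0.10 in B16 and -0.35 to 0.16 for the difference between lines. Lrp6 ranged from -0.063 to 0.046, -0.032 to 0.078, -0.033 to 0.015 and -0.072 to 0.035 in the same order. Between c30 and ect, Wnt10b ranged from -0.095 to 0.022 and Axin2 from -0.40 to 0.014. The sign also changed for Lrp5 with ect under limma-voom (0.0077), for Lrp6 in B16 with no filter (0.0019), and for the Lrp6 difference between lines with RLE size factors (0.0053), no filter (0.014) and DESeq2 (0.0051). No direction is given for these values. Of the members' values, 62 of 64 with c30, 60 of 64 with ect, 61 of 64 between c30 and ect, 39 of 43 in B16, 74 of 76 between the lines and 40 of 46 for the difference between lines kept both sign and side of the threshold. Among the other pathway genes, the number called with c30 was 5, but 3 with DESeq2, 1 with all 10 libraries in 1 fit, and 2 to 5 when single libraries were left out. With ect it was 7, but 3 with all 10 libraries in 1 fit and 3 to 6 without single libraries. In B16 it was 0, and 0 to 8 without single libraries. For the difference between lines it was 1, but 0 with limma-voom, 0 with the replicate block, and 0 to 8 without single libraries. The causes were not tested, beyond fewer libraries being fitted where one was left out. Between c30 and ect it was 0 throughout, and between the lines 48 to 58.

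Same-numbered libraries did not deviate together over all genes tested (correlations of -0.051 to 0.017). These values include counting error, so they cannot show whether such libraries share a culture or preparation. With the replicate block the number of pathway genes called was 5 with c30, 7 with ect, 0 between c30 and ect, 0 in B16 and 54 between the lines, and the Tcf7 difference between lines was 1.18 (edgeR adjusted p = 0.083). Over all genes, calls in B16 were 0, but 42 with no filter, 11 with DESeq2, 15 with the block, 27 with all 10 libraries in 1 fit, 16 and 3 without knockdown replicate 1 or 2, 1312 without wild-type replicate 1 and 334 without wild-type replicate 2. With c30 they were 1165, but 254 to 771 under the settings named beside the members' calls, with ect 1227, but 249 to 780, and between c30 and ect 45, but 8 to 19. For the difference between lines they were 82, but 211 with no filter, 126 with DESeq2, 48 with limma-voom, 40 with the block and 12 to 1285 without single libraries. Depth limits Axin2 (20 to 56 counts per library) and Dkk3 in MC38. Lef1, Sfrp1 and Nkd1 did not pass the filter on low counts in the main fits and were not tested there.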
